A study of Mus musculus with 2 samples.

Results

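Genes of 6 families of transcription factors were read in nephron progenitor cells with and without p53: the Sox, Fox, Gata, Tbx, Klf and Nfi factors. The members are the protein-coding genes of the deposited table whose symbols carry these family names, with Sox18 and Foxd1 left out by the rule. The rule used names alone and found 49 of the 10627 listed genes: 9 Sox, 16 Fox, 5 Gata, 4 Tbx, 11 Klf and 4 Nfi genes. GENCODE vM21 annotates 101 protein-coding genes with names of this form, of which 50 have their gene ID in the table. The last of these, spelled FOXL1 in capitals, falls outside the rule, and the other 51 are not analysed here.

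The KO group carried the Six2CreGFP transgene with floxed alleles of p53 (Six2CreGFP+;p53f/f), and the WT group carried the same transgene with intact p53 (Six2CreGFP+;p53+/+). Both were mouse embryos of a mixed CD1 and C57BL strain at embryonic day 15.5. Cre recombinase and GFP were driven by Six2, a gene of the cap mesenchyme, so deletion was aimed at nephron progenitors and both groups were sorted on the transgene they share. There was 1 RNA library per group, and whether animals were pooled is not given in the sources used here. No replicate spread exists, no test was run, and every interval below covers counting error only.

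Trp53, the gene for p53, was at 5.38 RPKM (reads per kilobase of gene, scaled to library depth) in KO and 33.9 RPKM in WT. Values taken from the table imply depths of about 85600000 reads in KO and 91200000 reads in WT. All 8 listed nephron progenitor markers were read in both libraries, with summed densities of 854 RPKM in KO and 840.2 RPKM in WT. Most of each sum came from Six2, at 509 RPKM in KO and 482 RPKM in WT. Of the 8 markers 5 were lower in KO and 3 higher, with a median ratio of 0.93. Every listed gene has a corrected p-value of the authors under a limit, the largest in the table being 0.0499827, so low genes are in it mostly with larger differences. In the authors' deposited table the smallest fold size was 1.12 among the 2316 listed genes under 1 RPKM. The median was 2.35 over the 2070 of them with reads in both libraries. Among the 5314 genes at or over the median density of 7.29 RPKM the median fold size was 1.12. The 19 members under 1 RPKM are listed because they passed that limit.

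Each family is named for its DNA-binding fold or for the sequence it binds. Sox proteins bend DNA through an HMG box, Fox proteins bind through the forkhead or winged-helix domain, Gata proteins bind GATA sequences through zinc fingers, and Tbx proteins carry the T-box domain. Klf proteins bind GC-rich and CACCC sequences through zinc fingers at their C-terminal end, and Nfi proteins, the nuclear factor I family, bind a palindromic element. In the developing kidney, Foxc1 and Foxc2 act in the early nephrogenic mesenchyme, Gata3 in the nephric duct and ureteric bud, and Tbx18 in the mesenchyme around the ureter. Outside the nephron lineage, Sox17 and Sox7 are known from endothelium, and Gata1 and Klf1 from red blood cell precursors.

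The members spanned densities from under 0.1 to over 100 RPKM. Within the Gata, Tbx and Nfi families every listed member was lower in KO, while the Sox, Fox and Klf families held members of both directions; no test between families was run. On the main measure, log2(KO + 1) minus log2(WT + 1) of the densities, 2 members were higher in KO by 1.5-fold or more and 10 were lower by as much. Among all listed genes 0.96% were that much higher and 5.5% that much lower. In either direction by any amount, 19 members were higher in KO and 30 lower, or 61.2% lower against 63.8% of all listed genes. The higher members were Sox11 and Klf4. The lower members were Tbx2, Tbx3, Tbx10, Tbx18, Gata2, Gata6, Nfia, Nfib, Nfix and Klf2. Of these 12, Sox11, Klf4 and Klf2 lay at or over the median density of the table, where 0.659% of listed genes were at least 1.5-fold higher and 2.43% lower. The members just inside the size rule of 0.58 were Klf4 at 0.65 and Klf2 at -0.62, and those just outside were Klf11 at 0.51 and Foxs1 at -0.47. The added 1 shrinks the difference of low genes, and by the plain density ratio 5 members exceeded 1.5-fold upward and 22 downward, where 4.39% and 22.6% of all listed genes did. At or over the median density the plain ratio put 2 members past it upward and 1 downward, where 0.772% and 2.69% of listed genes were.

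**Figure D1:**
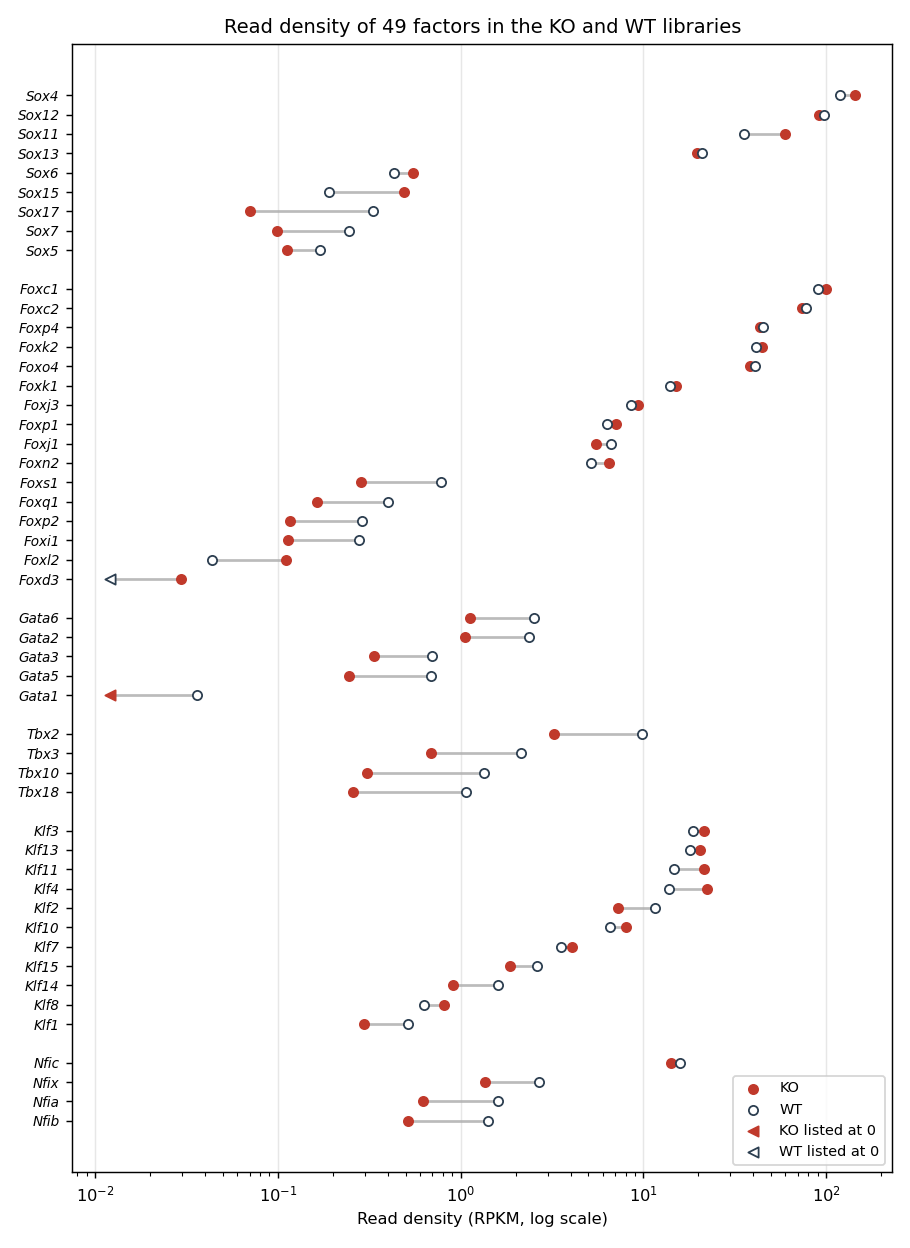
Read density in RPKM (log axis) of the 49 factors, 1 row each, grouped by family and ordered by mean density. Filled circles are the KO library and open circles the WT library, and left-pointing triangles stand for a library listed at 0. Sox4, Sox12, Foxc1 and Foxc2 lie farthest to the right in both libraries, while the 4 Tbx circles of KO all lie left of those of WT.

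A few members held most of the signal. The summed density of all 49 was 795 RPKM in KO and 746 RPKM in WT, and the 18 members at or over the median density made up 95.1% of it in KO and 92.4% in WT. The 4 highest, Sox4, Sox12, Foxc1 and Foxc2, made up 51.6% in KO and 51.5% in WT. Of the 18 abundant members 11 were higher in KO and 7 lower, with a median log2 difference of 0.11. Over all listed genes of that density, 55.8% were lower and the median was -0.07. Of the 31 members under the median density 23 were lower in KO, which is 74.2%, near the 71.9% of all listed genes under it.

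Start sites are shown for the Sox, Klf and Tbx members that were at least 1.5-fold apart and matched a RefSeq window, Sox11, Klf4, Klf2, Tbx10 and Tbx18, as 300 bases from 250 before to 50 after the RefSeq start on GRCm38.p6. The windows are chr12:27342669-27342968 on the minus strand for Sox11, chr4:55532426-55532725 on the minus strand for Klf4, chr8:72318812-72319111 on the plus strand for Klf2, chr19:3992502-3992801 on the plus strand for Tbx10, and chr9:87731211-87731510 on the minus strand for Tbx18. Capitals mark the GC box GGGCGG, which Klf and Sp proteins can bind, and the CCAAT box, on either strand.
Sox11: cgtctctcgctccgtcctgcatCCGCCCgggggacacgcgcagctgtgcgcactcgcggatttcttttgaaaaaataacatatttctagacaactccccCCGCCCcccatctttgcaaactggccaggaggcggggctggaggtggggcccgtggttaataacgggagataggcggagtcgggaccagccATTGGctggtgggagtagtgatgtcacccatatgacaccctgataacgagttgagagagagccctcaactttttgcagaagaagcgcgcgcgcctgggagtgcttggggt
Klf4: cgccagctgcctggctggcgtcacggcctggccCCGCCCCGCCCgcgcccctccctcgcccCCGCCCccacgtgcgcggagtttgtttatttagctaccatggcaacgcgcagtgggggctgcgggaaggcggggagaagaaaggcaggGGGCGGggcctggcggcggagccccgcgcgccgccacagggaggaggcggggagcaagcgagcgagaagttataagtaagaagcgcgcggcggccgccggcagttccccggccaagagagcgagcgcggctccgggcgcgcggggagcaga
Klf2: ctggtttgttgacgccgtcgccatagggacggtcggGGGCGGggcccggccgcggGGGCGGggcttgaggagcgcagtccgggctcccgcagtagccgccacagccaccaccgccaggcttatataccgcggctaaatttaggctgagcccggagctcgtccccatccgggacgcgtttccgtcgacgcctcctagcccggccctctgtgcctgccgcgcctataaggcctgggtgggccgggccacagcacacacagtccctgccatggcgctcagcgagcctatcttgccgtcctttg
Tbx10: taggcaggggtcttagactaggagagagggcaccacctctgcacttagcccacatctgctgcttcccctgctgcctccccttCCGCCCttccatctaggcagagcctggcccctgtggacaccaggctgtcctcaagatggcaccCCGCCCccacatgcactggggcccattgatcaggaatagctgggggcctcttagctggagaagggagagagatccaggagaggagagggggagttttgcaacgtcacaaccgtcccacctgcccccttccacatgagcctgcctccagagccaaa
Tbx18: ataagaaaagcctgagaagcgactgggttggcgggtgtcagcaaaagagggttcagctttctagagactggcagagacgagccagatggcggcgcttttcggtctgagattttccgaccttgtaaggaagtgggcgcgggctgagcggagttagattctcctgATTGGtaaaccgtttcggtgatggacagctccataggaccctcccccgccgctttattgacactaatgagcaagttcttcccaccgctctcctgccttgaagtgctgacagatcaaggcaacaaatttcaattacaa

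Klf4, higher in KO, holds 4 GC boxes in its window and Klf2, lower in KO, holds 2, so members that differed in opposite directions share this element. Sox11 has 2 GC boxes and 1 CCAAT box, Tbx10 has 2 GC boxes, and Tbx18 has 1 CCAAT box and no GC box. Tbx2 and Tbx3 matched no window. RefSeq windows matched 33 of the 49 members, in 45 windows. The GC box was found in 28 of these 45 windows, 62.2%, against 35.7% of all 32851 windows, and the median GC content was 60.3% against 52.7%. A CCAAT box was found in 20 of the 45 windows, 44.4%, against 37.4% of all windows. Other elements were searched on both strands. The SOX core AACAAT was in 3 windows (6.67%, against 10.7% of all), the forkhead core TGTTTAC in 1 (2.22%, against 3.65%), the GATA core AGATAAG in 1 (2.22%, against 3.04%) and the CACCC box CCACACCC in 2 (4.44%, against 3.56%). TATAAA was in 2 windows (4.44%, against 13.6%), AGGTGTGA of the T-box core in none (against 1.28% of all) and the NFI palindrome in none (against 0.0365% of all). The p53 decamer was matched in 1 window, that of Tbx18 (2.22%, against 8.36% of all).

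Sox genes of the SoxC group, which act in progenitors of many tissues and share closely related HMG boxes, were the most abundant of the family. Sox4 (ENSMUSG00000076431, chromosome 13, 28948919 to 28953713, minus strand) was at 144 RPKM in KO and 119 RPKM in WT, a ratio of 1.21 with a 95% exact interval of 1.20 to 1.23. Sox11 (ENSMUSG00000063632, chromosome 12, 27340697 to 27342709, minus strand) was at 59.8 RPKM in KO and 35.5 RPKM in WT, a ratio of 1.69 (interval 1.63 to 1.74). Sox12, the remaining SoxC gene, was at 91.9 RPKM in KO and 97.5 RPKM in WT, a ratio of 0.943 (0.930 to 0.957). The SoxC genes thus stood in the order Sox4, Sox12, Sox11 in both libraries, and Sox11 ranked 908 among all listed genes in KO and 1615 in WT. Sox13, a SoxD gene, was at 19.7 RPKM in KO and 20.95 RPKM in WT. Centred on the median of all listed genes, Sox12 and Sox13 had log2 differences of 0.03 and 0.03, in place of -0.08 and -0.08, so their direction depends on the scaling.

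Sox11 was counted over 2013 bases in the table, where the GENCODE vM21 model has 8311, so its density describes the part of the gene in the authors' annotation. In Sox4, 2616 bases overlap the non-coding gene Gm26735 on the opposite strand, and reads of the pair cannot be told apart because the strand used in counting is not given in the sources used here.

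The other Sox genes were low in both libraries. Sox17 was at 0.0703 RPKM in KO and 0.33 RPKM in WT, from about 29 reads in KO and 144 reads in WT, a ratio of 0.213 (0.139 to 0.321). Its SoxF relative Sox7 was at 0.0991 RPKM in KO and 0.246 RPKM in WT, a ratio of 0.403 (0.251 to 0.63). Both endothelial factors were therefore lower in KO. Their intervals lie under 1, but every listed gene passed the authors' p-value limit, so such intervals follow largely from being listed. All 10 listed endothelial markers were lower in the same library, with ratios from 0.158 to 0.628, a median of 0.27, and summed densities of 2.41 RPKM in KO and 7.78 RPKM in WT, and none was at 0. Most of these markers and both factors lie under 1 RPKM, where 82.9% of all listed genes were lower in KO. The part of endothelial cells in the Sox17 and Sox7 result was not tested, and fewer cells of a type and less RNA per cell cannot be told apart in a bulk library. Sox15 was at 0.488 RPKM in KO and 0.191 RPKM in WT, but from only about 36 reads in KO and 15 reads in WT, so its ratio of 2.56 has an interval of 1.37 to 5.03. The SoxD genes Sox5 and Sox6, known from cartilage and neural development, had ratios on opposite sides of 1, 0.659 (0.529 to 0.819) for Sox5 and 1.26 (1.13 to 1.41) for Sox6, and both changed sign under at least 1 other scaling or correction.

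**Figure D2:**
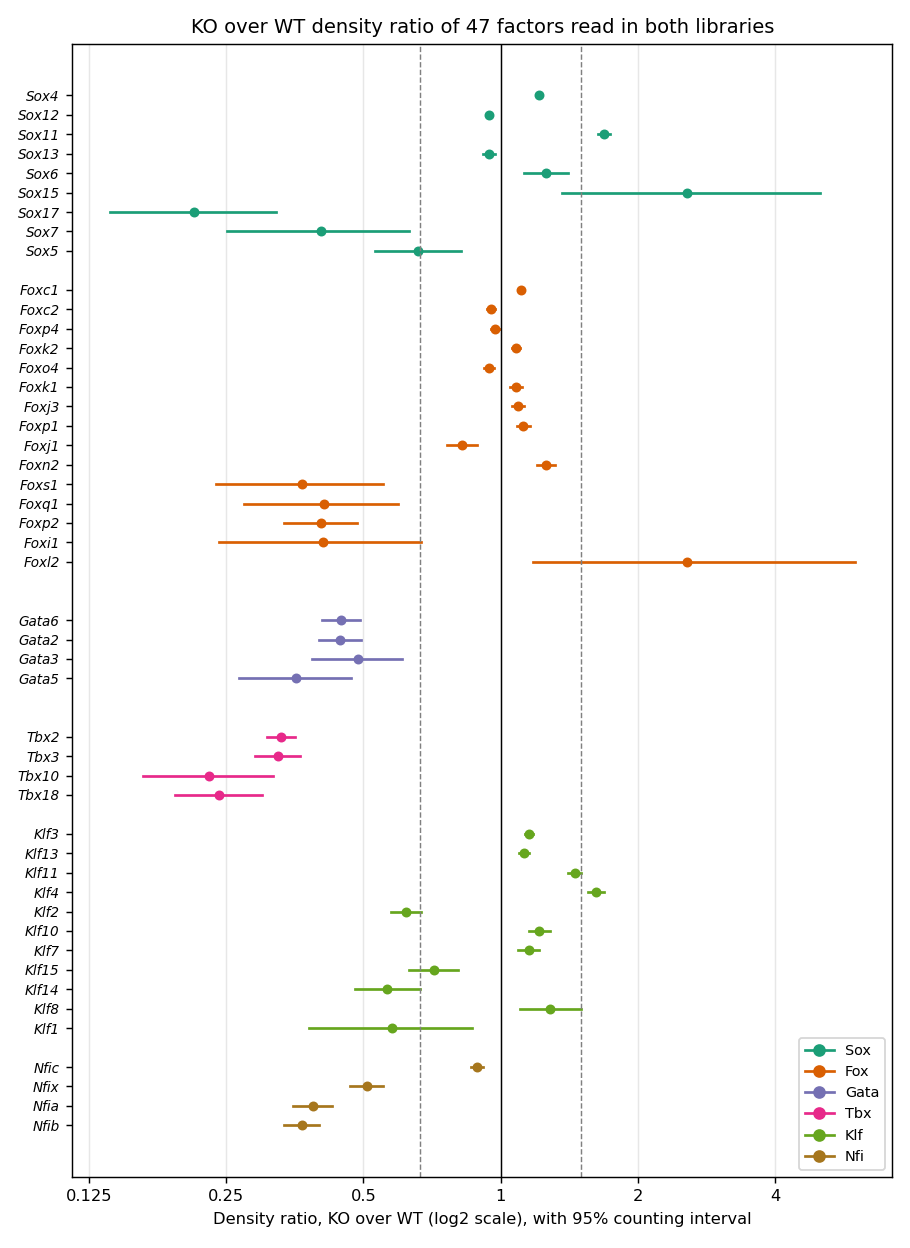
Ratio of KO to WT density (log2 axis) for the 47 factors with reads in both libraries, 1 row each, colored by family. Bars are 95% exact counting intervals, the solid line is a ratio of 1 and the dashed lines are 1.5-fold. Every Tbx interval lies left of the lower dashed line, and Klf4 and Sox11 lie right of the upper one.

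Forkhead genes differed little in size where they were abundant. Foxc1 (ENSMUSG00000050295, chromosome 13, 31806646 to 31810635, plus strand) was at 99.7 RPKM in KO and 89.99 RPKM in WT, a ratio of 1.11 (1.09 to 1.12). Its paralog Foxc2 was at 73.95 RPKM in KO and 77.6 RPKM in WT, a ratio of 0.953 (0.933 to 0.973). Foxc1 was higher in KO under every scaling tried, whereas the log2 difference of Foxc2 was -0.07 on the deposited densities and 0.05 when centred on the median of all listed genes. Foxp4 was at 43.7 RPKM in KO and 44.98 RPKM in WT, yet the authors' deposited table gives it a fold change of 1.01 in favour of KO, since their fold carries a library scaling of 1.04. It was the single member whose direction differed between the deposited densities and the deposited folds.

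Foxk2, a forkhead regulator of metabolism and autophagy genes, was at 44.8 RPKM in KO and 41.4 RPKM in WT, and its relative Foxk1 at 15.2 RPKM in KO and 14.04 RPKM in WT. Foxo4, a FoxO factor held in the cytoplasm by Akt signalling, was at 38.6 RPKM in KO and 40.9 RPKM in WT. The intermediate members Foxj3, Foxp1 and Foxn2 had ratios of 1.09, 1.12 and 1.26, and Foxj1, which drives the formation of motile cilia, had a ratio of 0.824 (0.764 to 0.888). None of the 10 Fox genes over 5 RPKM differed by 1.5-fold.

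The 6 Fox genes under 1 RPKM had ratios further from 1, as did most listed genes at that level, which are listed only where they passed the authors' limit. By plain density ratio 74.1% of all listed genes under 1 RPKM were at least 1.5-fold lower in KO and 13.4% higher. Foxs1 was at 0.285 RPKM in KO and 0.778 RPKM in WT, Foxq1 at 0.163 RPKM in KO and 0.399 RPKM in WT, Foxp2 at 0.116 RPKM in KO and 0.288 RPKM in WT, and Foxi1 at 0.114 RPKM in KO and 0.279 RPKM in WT. Their ratios lay between 0.367 and 0.409. In the other direction, Foxl2, a factor of the ovary, was at 0.111 RPKM in KO and 0.0435 RPKM in WT, from about 24 reads in KO and 10 reads in WT. Foxd3, a neural crest factor, had 6 reads in KO and was listed at 0 in WT, so it was at least 2.13-fold higher in KO against a floor of 3 reads per library, and the exact 95% interval of its ratio starts at 1.25. Foxq1 overlaps A530084C06Rik on the opposite strand over 1164 bases, and reads of the pair cannot be told apart.

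All 5 listed Gata genes were lower in KO. GENCODE vM21 annotates 6, and Gata4 was not listed. None of the 5 reached the median density, under which 71.9% of all listed genes were lower. Gata6, a factor of endoderm and smooth muscle, was at 1.12 RPKM in KO and 2.52 RPKM in WT, a ratio of 0.446 (0.406 to 0.490). Gata2, known from blood, endothelium and the urogenital tract, was at 1.06 RPKM in KO and 2.37 RPKM in WT, a ratio of 0.445 (0.399 to 0.495). The pair thus lay at nearly the same level and had overlapping intervals. Gata3 was at 0.338 RPKM in KO and 0.694 RPKM in WT, a ratio of 0.486 (0.386 to 0.608). Gata5 was at 0.246 RPKM in KO and 0.692 RPKM in WT, a ratio of 0.355 (0.266 to 0.468). Gata1 was listed at 0 in KO and had 8 reads in WT, so it was at least 2.50-fold lower in KO against the floor of 3 reads, and the exact 95% interval of its ratio ends at 0.624.

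Markers of ureteric bud and erythroid cells, where Gata3, Gata1 and Klf1 are known, were lower in KO as well. Over all listed genes 63.8% were lower. The 9 listed ureteric bud markers were all lower in KO, with a median ratio of 0.524 and summed densities of 13.9 RPKM in KO and 26.7 RPKM in WT. The 7 listed erythroid markers were all lower too, with a median ratio of 0.041 and sums of 23.6 RPKM in KO and 630.4 RPKM in WT, most of it from globin genes with near-identical copies. Klf1, the erythroid Klf factor, was at 0.297 RPKM in KO and 0.515 RPKM in WT, a ratio of 0.577 (0.38 to 0.864). No listed ureteric bud or erythroid marker was at 0 in KO, and the part of these cells in the Gata and Klf1 values was not tested. Muscle markers, read beside Gata6, lay on both sides of 1, with ratios of 0.353 for Myh11 and 1.21 for Des.

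Among 7 listed genes of 8 named as partners or repressors of Gata and Klf proteins, 5 were lower in KO and 2 higher, and none differed by 1.5-fold on the main measure. By the plain density ratio 3 of the 7 were at least 1.5-fold lower, 42.9%, beside 22.6% of all listed genes. Under 1 RPKM, where the mean densities of Lmo2 and Lyl1 lie, 74.1% of all listed genes were that much lower. The furthest apart were Lmo2, a bridging protein of the Gata1 complex (0.474 RPKM in KO and 1.14 RPKM in WT), Zfpm2, which binds Gata factors (0.702 RPKM in KO and 1.395 RPKM in WT), and Lyl1 (0.156 RPKM in KO and 0.426 RPKM in WT). The list's median log2 difference was -0.15, beside -0.11 for all listed genes. Of 5 genes named as Gata relatives, 3 were listed, led by Gatad2b of the NuRD complex at 18.3 RPKM in KO and 14.04 RPKM in WT.

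The 4 listed Tbx genes, of 13 annotated in GENCODE vM21, were the family furthest below WT, and all 4 passed 1.5-fold. The other 9 were not listed, so these values do not describe the whole family. On the main measure 5.5% of all listed genes were that much lower. By plain density ratio the share was 74.1% under 1 RPKM, where Tbx10 and Tbx18 lie. It was 18.2% from 1 RPKM to the median density, where Tbx2 and Tbx3 lie, Tbx3 near the lower end at a mean of 1.41 RPKM. Tbx2 (ENSMUSG00000000093, chromosome 11, 85832551 to 85841948, plus strand) was at 3.23 RPKM in KO and 9.79 RPKM in WT, a ratio of 0.33 (0.307 to 0.355). Tbx3, its close relative and like it mainly a repressor of transcription, was at 0.692 RPKM in KO and 2.14 RPKM in WT, a ratio of 0.324 (0.289 to 0.364). Tbx2 and Tbx3 had ratios whose intervals overlap, although their levels differed. Tbx18 was at 0.257 RPKM in KO and 1.07 RPKM in WT, a ratio of 0.241 (0.193 to 0.299). Tbx10 was at 0.309 RPKM in KO and 1.34 RPKM in WT, a ratio of 0.23 (0.164 to 0.316). A composition correction was made by subtracting the median of listed genes alike in GC content and transcript length and adding back the median of all. With it, the log2 differences were -1.28 for Tbx2, -0.90 for Tbx3, -0.74 for Tbx10 and -0.79 for Tbx18, so all 4 stayed past 1.5-fold. Tbx18 shares 970 bases with a gene on the opposite strand. Of 4 named T-box relatives outside the Tbx names, Mga alone was listed, at 11.8 RPKM in KO and 10.7 RPKM in WT.

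Stromal markers were lower beside the Tbx genes. All 10 of the 10 named were listed and lower in KO, with ratios from 0.202 to 0.653, a median of 0.275, and summed densities of 91.4 RPKM in KO and 233 RPKM in WT. Over all listed genes 63.8% were lower, and 5.5% at least 1.5-fold lower on the main measure. The Tbx ratios of 0.23 to 0.33 lie inside the stromal range. They also lie inside the ranges of the endothelial (0.158 to 0.628), leukocyte (0.0785 to 0.457) and podocyte (0.0159 to 0.773) markers. Among the 7 genes named as stroma and vessel context, which overlap the marker list, all 7 were at least 1.5-fold lower, such as Col1a1 at 7.82 RPKM in KO and 37.8 RPKM in WT and Ntn1 at 3.84 RPKM in KO and 18.96 RPKM in WT. No stromal marker was at 0, and the part of stromal cells in the Tbx values was not tested.

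**Figure D3:**
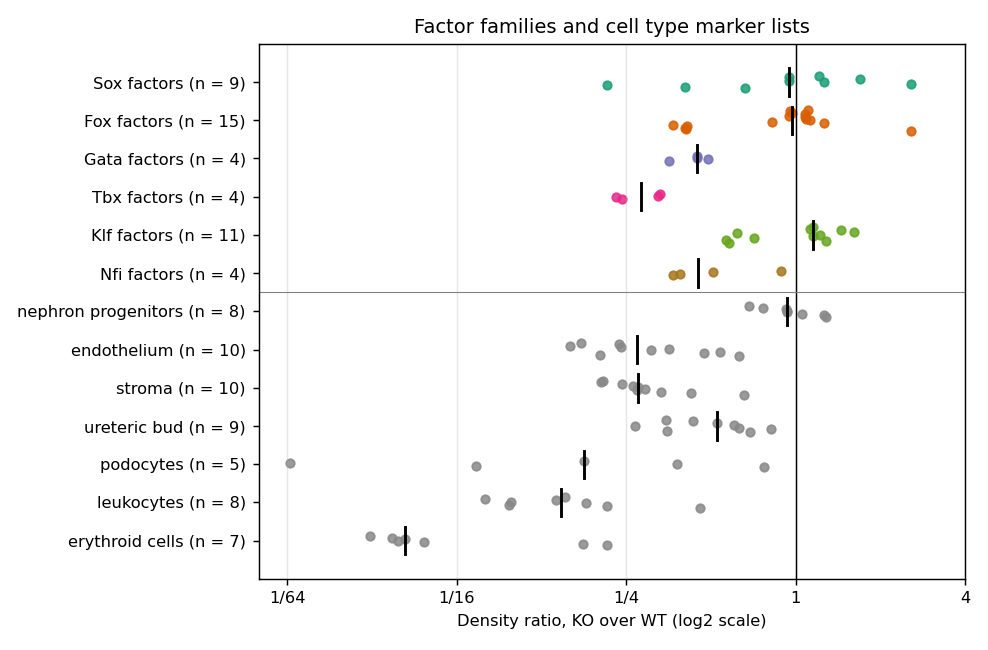
Ratio of KO to WT density (log2 axis) of single genes, with the 6 factor families above the line and 7 marker lists below it. Not plotted are the neural list, with 2 of 3 listed genes higher in KO, and the muscle list, with 1 higher and 1 lower. Points are genes with reads in both libraries and black bars are medians. The Tbx, Gata and Nfi medians of 0.283, 0.445 and 0.448 lie among those of the stromal (0.275), endothelial (0.27) and ureteric bud (0.524) markers and above those of the podocyte (0.177), leukocyte (0.146) and erythroid (0.041) markers. The median over all listed genes under 1 RPKM with reads in both libraries was 0.449, and the Sox median of 0.943 lies near that of the nephron progenitor markers (0.93).

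Klf genes were mixed, with 7 of 11 higher in KO and 4 lower and a median log2 difference of 0.16. With the composition correction 4 were higher and 7 lower, with a median of -0.05. Klf4 (ENSMUSG00000003032, chromosome 4, 55527143 to 55532466, minus strand), a factor of epithelial barriers and of cell reprogramming, was at 22.3 RPKM in KO and 13.8 RPKM in WT, a ratio of 1.62 (1.55 to 1.68). Klf11, known as an early response gene of TGF-beta, was at 21.5 RPKM in KO and 14.8 RPKM in WT, a ratio of 1.45, just short of the size rule. Its log2 difference was 0.56 with the authors' library scaling, still short, and 0.62 when centred on the median of all listed genes, past 1.5-fold. The authors' deposited fold for Klf11 was 1.51, so its call depends on the scaling. Klf3, a repressor, was at 21.5 RPKM in KO and 18.6 RPKM in WT, and Klf13 at 20.3 RPKM in KO and 18.1 RPKM in WT. These 4 abundant Klf genes lay between 13.8 and 18.6 RPKM in WT, and in KO between 20.3 and 22.3 RPKM. Klf4 ranked 2467 among all listed genes in KO and 3699 in WT. Klf10, the other TGF-beta response gene of the family, had a ratio of 1.21 (1.15 to 1.28).

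Klf2 (ENSMUSG00000055148, chromosome 8, 72319033 to 72321656, plus strand), a factor induced by blood flow in endothelium, was the abundant member that went the other way. It was at 7.23 RPKM in KO and 11.7 RPKM in WT, a ratio of 0.62 (0.576 to 0.667). Its log2 difference of -0.62 was -0.57 with the authors' library scaling and -0.52 with the composition correction, both short of 1.5-fold. Klf14, with a ratio of 0.565 (0.479 to 0.664), and Klf15, at 1.86 RPKM in KO and 2.61 RPKM in WT, were lower as well. Klf7 and Klf8 had ratios of 1.15 and 1.29, and both changed sign after the correction. In Klf7, 3196 bases overlap Gm26649 on the opposite strand. The endothelial markers described beside Sox17 were lower in the same library as Klf2, and their part in its value was not tested.

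Sp proteins are the closest relatives of the Klf proteins and bind the same GC boxes. Of 9 named Sp genes 6 were listed, 4 higher in KO and 2 lower, with a median log2 difference of 0.21. Sp5, a Wnt target, was at 13.1 RPKM in KO and 9.25 RPKM in WT, and Sp4 at 7.95 RPKM in KO and 5.68 RPKM in WT. Sp6 was listed at 0 in KO, against 0.538 RPKM in WT. With the composition correction the list's median was -0.06, so its direction rests on that choice.

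All 4 Nfi genes were listed and lower in KO, and Nfic was set apart from the others by its level. Among all listed genes 63.8% were lower, and 71.9% of those under the median density, where the other 3 Nfi genes lie. Nfic was at 14.1 RPKM in KO and 15.9 RPKM in WT, a ratio of 0.889 (0.863 to 0.916). Nfix was at 1.36 RPKM in KO and 2.68 RPKM in WT, a ratio of 0.508 (0.468 to 0.552). Nfia, a gene needed for normal urinary tract development, was at 0.623 RPKM in KO and 1.61 RPKM in WT, a ratio of 0.387 (0.351 to 0.426). Nfib was at 0.514 RPKM in KO and 1.40 RPKM in WT, a ratio of 0.366 (0.335 to 0.400). The intervals of Nfia and Nfib overlap, and neither overlaps that of Nfix. Transcripts of Nfia and Nfib have a low GC content of 42.7% and 43.3%, and genes of like composition were on the whole higher in KO. With the composition correction the log2 differences of Nfia and Nfib were -0.95 and -0.93, beside -0.69 and -0.67 without it. Centred on the median of all listed genes, Nfix, Nfia and Nfib had log2 differences of -0.53, -0.57 and -0.55, short of 1.5-fold.

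**Figure D4:**
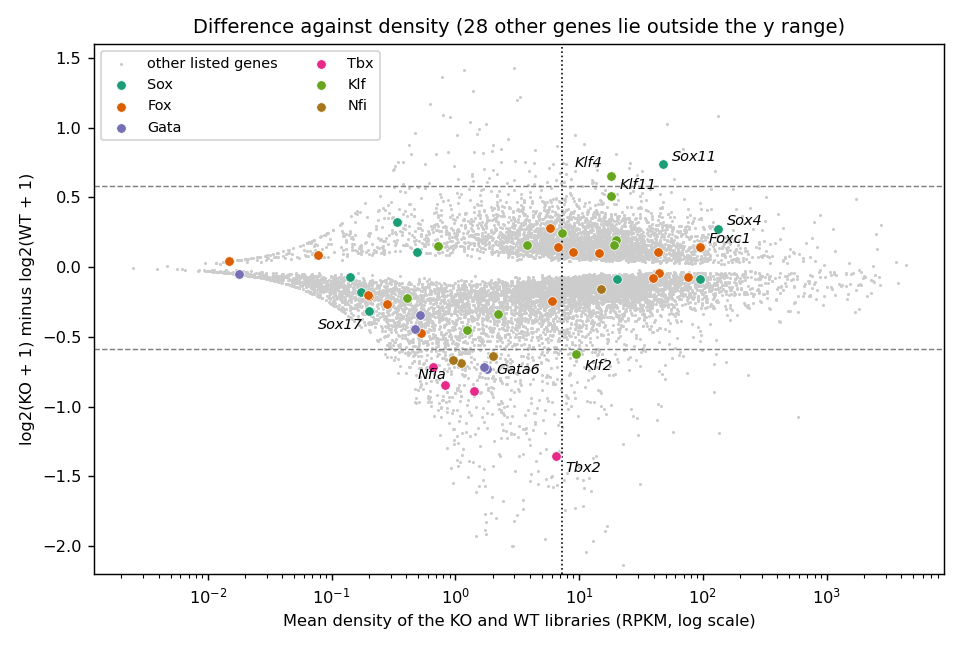
Difference between the libraries, log2(KO + 1) minus log2(WT + 1), against the mean density in RPKM (log axis) for the listed genes (grey) and the 49 factors (colored by family). Dashed lines are 1.5-fold and the dotted line is the median density of 7.29 RPKM. Of the other listed genes 28 lie outside the plotted range. Genes that did not pass the authors' limit are not plotted, and low densities are pulled toward 0 by the added 1. Tbx2 at -1.35 is the lowest factor and Sox11 at 0.74 the highest.

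Between 1 RPKM and the median density the p-value limit asked for smaller differences, with a median fold size of 1.25 over the 2997 listed genes there in the authors' deposited table. Of the 12 members in this range 7 were at least 1.5-fold lower by plain density ratio, 58.3%, against 18.2% of all listed genes in it. These were Tbx2, Tbx3, Gata2, Gata6, Nfia, Nfix and Klf14, and no member of the range was at least 1.5-fold higher. Tbx2 had a mean density of 6.51 RPKM, and the others lay near the lower end of the range, from 1.12 to 2.02 RPKM. The share of all listed genes that much lower fell with density, to 2.69% at or over the median. The 18.2% is therefore not matched to the density of these members, and a matched share was not computed. Under 1 RPKM the member share of 73.7% was near the 74.1% of all listed genes.

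Other transcription factors were set beside the members through the Gene Ontology term for sequence-specific DNA-binding transcription factor activity, which the table itself carries. The 363 other listed genes with that term had a median log2 difference of 0.05, against -0.08 over the 49 members. With the composition correction these medians were -0.06 and -0.10. At or over the median density the medians were 0.11 for the 18 members and 0.11 for 206 other factors, with 38.9% of members and 36.4% of other factors lower in KO, beside 55.8% of all listed genes. From 1 RPKM to the median density, 21.4% of 103 other factors were at least 1.5-fold lower by density ratio. These figures describe the lists, and no test between them was run.

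Base composition went along with the direction of the abundant members. The 11 that were higher in KO had transcripts with a median GC content of 51.1% (45.7% to 56.2%), and the 7 that were lower had a median of 60.8% (55.2% to 63.4%). Across the 18 abundant members the rank correlation of log2 difference with GC content (Spearman's rho) was -0.74, and across 5266 listed genes of that density it was -0.52, where genes of a library pair share depth and preparation and are not replicates. In the highest of 5 equal groups by GC content, there were 8 abundant members and 6 of them were lower in KO, with a median of -0.08, beside -0.15 for all listed genes there. Sox11, Klf4 and Klf11 had log2 differences of 0.76, 0.71 and 0.49 with the composition correction, beside 0.74, 0.65 and 0.51 on the deposited densities. The GC content used for Sox11, 46.5%, is that of its longest transcript, while its reads were counted over 2013 of 8311 model bases. Its corrected value and its place by GC content may thus not describe the counted part. Klf3, Foxj3 and Foxp1 changed sign, with -0.01, -0.09 and -0.06 after the correction and 0.20, 0.11 and 0.14 before it.

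**Figure D5:**
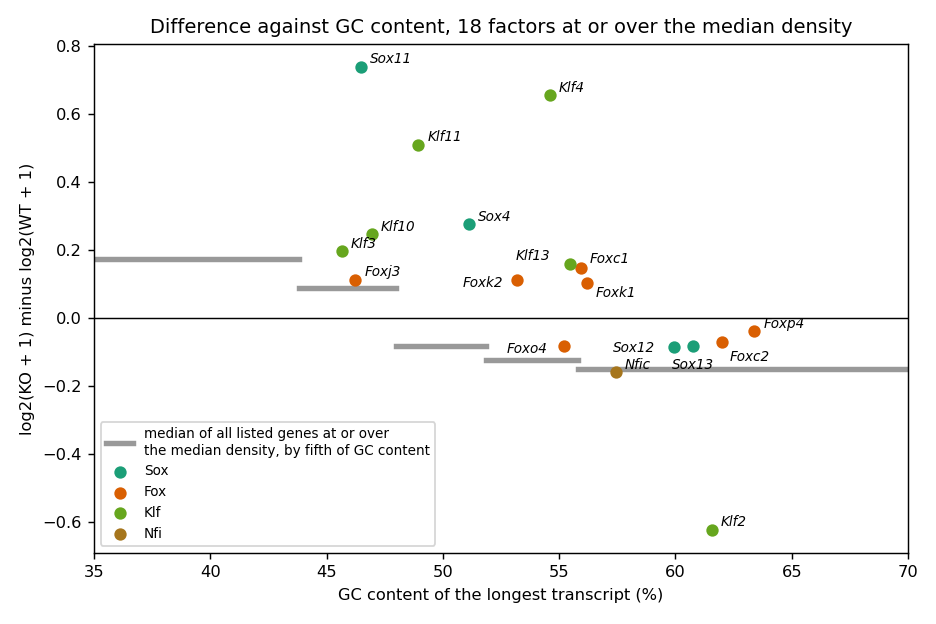
Difference between the libraries, log2(KO + 1) minus log2(WT + 1), against the GC content of the longest transcript for the 18 factors at or over the median density. Grey bars are the medians of all listed genes of that density in each of 5 equal groups by GC content. Sox11, Klf4 and Klf11 lie above the bar of their group and Klf2 lies below it.

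Relatives with an HMG box outside the Sox names were mixed. Of 17 named, 13 were listed, 7 higher in KO and 6 lower, none by 1.5-fold on the main measure, with a median of 0.09 that was -0.06 with the composition correction. Tox3 was at 16.4 RPKM in KO and 13.5 RPKM in WT, Tcf7l2, an effector of Wnt signalling, at 3.45 RPKM in KO and 2.82 RPKM in WT, and Bbx at 12.2 RPKM in KO and 10.9 RPKM in WT.

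Genes known as targets of Fox proteins differed by small amounts. Of 12 named FoxO targets 11 were listed, 8 higher in KO and 3 lower, with a median log2 difference of 0.19. Of the 11, 10 lie at or over the median density, where 55.8% of all listed genes were lower. No test of this list was run. Sesn3 was at 23.2 RPKM in KO and 16.7 RPKM in WT, Trib1 at 15.8 RPKM in KO and 11.6 RPKM in WT, and Cited2 at 108 RPKM in KO and 84.6 RPKM in WT. Foxo4 was the single FoxO gene among the members. The FoxM1 target list, genes of mitosis, had 10 of 12 listed, 3 higher and 7 lower, with a median of -0.10, near that of all listed genes. All 10 lie at or over the median density. Ccnb1, cyclin B1, was at 17.3 RPKM in KO and 13.0 RPKM in WT, Cenpf at 20.2 RPKM in KO and 17.3 RPKM in WT, and Cdc25b at 12.9 RPKM in KO and 14.5 RPKM in WT.

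Regulators of the progenitor state were nearer to even than the low factors. Of 16 named, 15 were listed, 7 higher in KO and 8 lower, with none 1.5-fold apart and a median of -0.07. Of the 15, 14 lie at or over the median density. The authors' median fold size was 1.12 for all listed genes there and 2.35 under 1 RPKM, so this contrast with the low factors is not matched for density. Cited1, which marks the least committed progenitors, was at 16.1 RPKM in KO and 23.6 RPKM in WT. Hoxc11 was at 17.5 RPKM in KO and 25.1 RPKM in WT, and Osr1, a zinc finger gene of the early kidney field, had a ratio of 0.765. Six2 was at 509 RPKM in KO and 482 RPKM in WT, above every one of the 49 factors in both libraries.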

How the data were processed

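RNA from 1 KO and 1 WT library was analysed from the authors' table. Per the submitters' processing notes, CASAVA 1.8, Novoalign 2.08.02 and FastQC were used, with the builds GRCm38 and mm10 named, in no stated role. The deposited columns, per the file headers, are a read density per library (its values behave as RPKM), a p-value with its corrected form, an unsigned fold ratio, and a signed fold score, below 0 for genes lower in KO. How reads were counted, and on which strand, is not given in the sources used here.

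Members and lists were chosen with earlier results of these data known. Depth came from fold changes of genes at 0 in 1 library, 70 of 75 in KO and 150 of 171 in WT being whole multiples of a step within 0.01 of a read. Reads are density times gene length times depth, with GENCODE vM21 length capped at the deposited span; in 28 of 49 members both estimates were within 0.1 of a whole read. Exact Clopper-Pearson 95% intervals of the ratio use these reads. The main measure was log2(density + 1), KO minus WT, with a 1.5-fold size rule and no test. Members named in full are those 1.5-fold apart and the 4 highest per family, and up to 3 genes per other list by size of difference; other members, FOXL1 and the marker genes named with values were chosen after these were seen. GC content is that of the longest transcript, and the correction subtracts the median of 10 GC by 4 length bins and adds back the median of all genes. The calculation was tested on simulated data. Alternatives were the pseudocount, scaling, density filter, size rule, correction and, added after seeing the data, the plain density ratio. Python 3.11.15, pandas 2.3.3 and SciPy 1.17.1 were used.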

Additional observations from a re-analysis of the deposited data

How the results depend on the processing

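Of the 2 members higher and 10 lower by 1.5-fold, a pseudocount of 0.25 gave 16 lower, with a median log2 difference over members of -0.17, and a pseudocount of 4 gave 1 higher and 1 lower. Centring on the median of all listed genes, a shift of 0.11 (their median being -0.11), gave 3 higher, 6 lower and a median of 0.033 in place of -0.08. A 2-fold rule gave 0 higher and 1 lower, and the plain density ratio 5 higher, 22 lower and a median of -0.17. With genes at or over the median density alone, 18 members had 1 lower and a median of 0.11, and at or over the 75th percentile 8 members had 1 higher, 0 lower and a median of 0.036; these counts follow from fewer genes. With the authors' scaling 2 were higher and 9 lower, and the composition correction gave the same counts, Klf2 dropping out in both. Of 294 single values of members under these settings 130 lay inside the counting interval of the main value and 164 outside, none of a member past 1.5-fold changing sign. In 13 members with differences up to 0.20 the sign changed under a scaling or the correction; the cause was not tested. Members under 1 RPKM are listed only where they passed the authors' limit. No paired analysis was possible because each group has 1 library.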

Other observations

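Podocyte, leukocyte, neural and muscle markers were read as further cell types. All 5 listed of 6 podocyte markers were lower in KO, with a median ratio of 0.177 and summed densities of 3.19 RPKM in KO and 13.1 RPKM in WT. Podxl, a surface protein of podocyte foot processes, was at 1.59 RPKM in KO and 8.99 RPKM in WT. All 8 listed of 10 leukocyte markers were lower, with a median ratio of 0.146 and sums of 2.00 RPKM in KO and 15.1 RPKM in WT. Among all listed genes 63.8% were lower, and 82.9% of those under 1 RPKM. Of 8 neural markers 3 were listed, 2 higher in KO and 1 lower, and of 6 muscle markers 2 were listed, 1 in each direction. FOXL1, a forkhead gene whose symbol the table spells in capitals, was at 2.43 RPKM in KO and 5.75 RPKM in WT.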
